A study of Mus musculus with 19 samples.

Results

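Messenger RNA from wild-type (WT) mouse hearts at postnatal day 21 (P21, weaning) was compared with that from WT hearts at postnatal day 1 (P1), to describe the net change of gene expression from birth to weaning. The comparison rests on 7 heart libraries, 4 at P21 (numbered 2, 3, 57 and 60) and 3 at P1 (numbered 1, 2 and 3), of 19 in the series. They were chosen by their age and genotype labels, and library 63 of P21 was left out since its title and its genotype label contradict each other. Another 5 WT libraries, at P7 (1, 3, 72, 76 and 77), shared in the estimate of the spread and served to find genes that peak or dip between the 2 ages. The study profiled hearts of WT mice and of mice with a conditional knockout of PDK1, a kinase that activates AKT-type kinases. The knockout hearts are not described here. The WT hearts are labelled by genotype, tissue and age. The titles of libraries 2 and 3 of P21 also hold the tag B6, which the labels do not explain and no other title has, and no label gives a strain, the sex or the time of day at collection. The youngest hearts are labelled P1, while the series design calls them P0. The labels do not say that the libraries came from separate animals, so the p-values measure the spread between libraries.

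After birth the mouse heart changes from a growing organ of dividing cardiomyocytes that rely largely on carbohydrate into an organ of enlarged, non-dividing cardiomyocytes that burn mainly fatty acids in a dense mitochondrial network. Fetal isoforms of contractile proteins are replaced by adult ones, the sarcoplasmic reticulum and the potassium currents that end the action potential mature, and imprinted growth genes are silenced in many organs. Blood flow, resident macrophages and the matrix are remodelled over the same weeks. In RNA from whole hearts, fewer cells of a type and less of a transcript per cell cannot be told apart.

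Values are the authors' transcript abundances (TPM, scaled by the authors to gene length and library total), divided here by a factor for each library (the median ratio of its genes to their geometric mean) and called scaled TPM. Values of single libraries are given in the order 2, 3, 57 and 60 for P21, 1, 2 and 3 for P1, and 1, 3, 72, 76 and 77 for P7. The factors were 0.717 to 0.831 at P21 and 1.09 to 1.21 at P1. The 10 most abundant genes took 40.6% ± 0.836 of all TPM at P21 (SD, n = 4) and 28.5% ± 1.9 at P1 (SD, n = 3), and the mitochondrial transcripts 23.5% ± 0.76 at P21 and 16% ± 2.11 at P1. On the deposited TPM the median gene stood lower at P21, with a log2 change of -0.49, against -0.03 after scaling. All changes below are relative to the median gene. TPM keep no read depth, so counting error is unknown, and 12422 to 12916 genes had at least 1 TPM in a P21 library, against 13413 to 13739 in a P1 library.

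Libraries of an age resembled each other more than those of the other age. Pearson's r of log2(scaled TPM + 1) across genes was at least 0.97 within P21, at least 0.974 within P1, and 0.881 to 0.906 between the ages. Library 3 of P1 stood apart: it held both Xist, at 16.9 scaled TPM, and the Y-linked Eif2s3y, at 18.5, while the other P1 libraries held Xist at 32.9 and 28.5 with Eif2s3y at 0 and 0.149. At P21, libraries 2 and 57 held Eif2s3y at 49.6 and 53.4 and libraries 3 and 60 held Xist at 38.2 and 39.6. All P1 titles carry a letter code before the number (H), as do libraries 2 and 3 of P21 (B6), whereas libraries 57 and 60 have plain numbers, so the style of the title was a term of the model.

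Of 14429 genes tested with limma, 3881 rose (26.9%) and 4208 fell (29.2%) in P21 relative to P1 hearts at an adjusted p under 0.05, that is, 56.1% of all genes. At least a 2-fold change on the log2(scaled TPM + 1) scale was seen for 1163 of those that rose and 1113 of those that fell, and at least an 8-fold change for 47 and 85 of them. Without library 3 of P1 the counts were 3878 higher and 4199 lower, and without library 57 of P21 they were 3945 higher and 4190 lower. Without scaling, 1555 genes were higher and 8229 lower, so 15.9% of calls were higher, against 48% after scaling. With the letter-coded libraries alone, 3395 rose and 3643 fell. All 7879 called genes that could be fitted there had the same direction, and 6724 passed again. The letter-coded libraries were also part of the main fit that made the calls, so this is no independent check. With 56.1% of genes called, a share of members near these backgrounds says nothing about a list. Where a list below had no member called in 1 direction, an unadjusted p under 0.05 in limma gave none there either, except 1 interferon and antigen presentation gene that was lower. In many lists the members that make up 5 or fewer exceptions are named after their values were seen, as are a few further members marked as such. In some lists, such as those of mitochondrial ribosome, antioxidant and clock genes, not every exception is named. Most other named members, outside the isoform pairs, were picked by smallest p. Their wide separation between the ages follows from that choice.

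**Figure D1:**
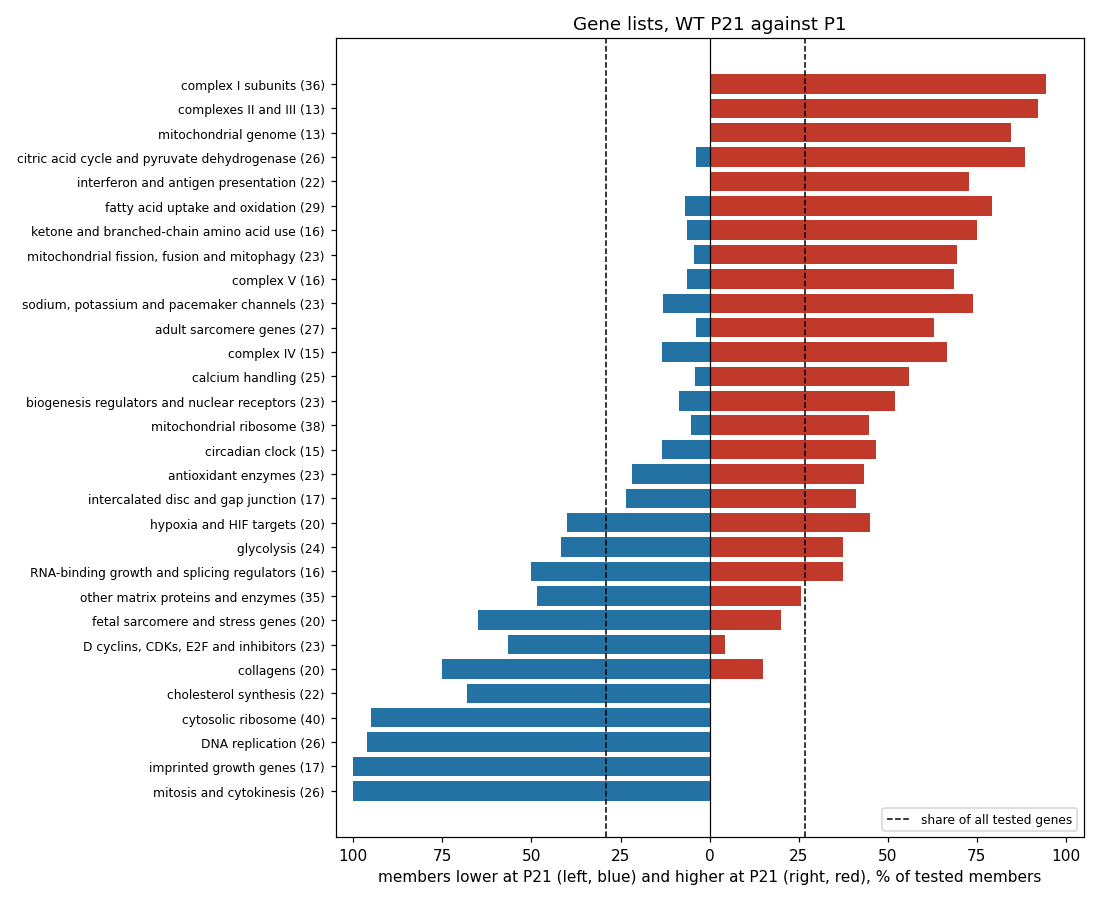
Share of the tested members of each gene list that fell (left, blue) and rose (right, red) at P21 relative to P1, in percent, with the number tested in brackets and dashed lines at the shares over all genes, 29.2% and 26.9%. Mitosis, imprinted growth, DNA replication and ribosome genes stand at the bottom with no member that rose, and respiratory complexes I to III and the mitochondrial genome at the top with none that fell after scaling.

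The 12 genes that rose most under the naming rule were Strit1, Art1, Ces1d, Rpl3l, Lrtm1, Rxrg, Tuba8, Cd74, Cbr2, Trim72, H2-Aa and Folr2. Strit1, which encodes the micropeptide DWORF that stimulates the sarcoplasmic reticulum calcium pump, was at 46.8, 68.6, 220.4 and 195 scaled TPM in the P21 libraries and was listed at 0 in all 3 P1 libraries, so no fold is given. Art1 (mm10 chr7:102101743-102113933, plus strand), an ADP-ribosyltransferase of the muscle cell surface, had 130.1, 137, 137 and 142 scaled TPM in the P21 libraries and 2.98, 2.64 and 3.36 in the P1 libraries (log2 change 4.93 ± 0.21 (SE), adjusted p = 1.52e-08). Its 4 P21 values lie within a narrow band and far above every P1 value. Ces1d, a carboxylesterase that hydrolyses triacylglycerol, had 37.5, 51.4, 36.6 and 52.9 scaled TPM in the P21 libraries and 0.318, 0.281 and 0.699 in the P1 libraries (log2 change 4.90 ± 0.27 (SE), adjusted p = 1.05e-07). Rpl3l (mm10 chr17:24727820-24736143, plus strand), the ribosomal protein L3 paralog of striated muscle, had 182, 179, 247 and 259 scaled TPM in the P21 libraries and 3.98, 3.41 and 8.44 in the P1 libraries (log2 change 4.73 ± 0.27 (SE), adjusted p = 1.38e-07). Within P1, library 3 was the highest for this gene, and it was so again for the next genes. Lrtm1, a leucine-rich repeat membrane protein, had 86.02, 81.2, 73.5 and 80.1 scaled TPM in the P21 libraries and 1.9, 1.06 and 5.17 in the P1 libraries. Rxrg, the retinoid X receptor gamma, had 45.3, 46.9, 54.9 and 48.1 scaled TPM in the P21 libraries and 0.862, 0.347 and 5.196 in the P1 libraries, and the alpha-tubulin gene Tuba8 had 75.6, 78.6, 114 and 92.03 scaled TPM in the P21 libraries and 1.44, 1.36 and 12.1 in the P1 libraries. Trim72, the muscle membrane-repair protein MG53, had 217, 209.9, 209 and 198 scaled TPM in the P21 libraries and 11.3, 8.104 and 33.8 in the P1 libraries. The naming rule admits only genes without overlap between the ages, and the log2 changes of these 4 were 4.36, 4.18, 4.12 and 3.69. Cbr2, a carbonyl reductase, and Folr2, the folate receptor of resident macrophages, rose by 3.72 and 3.57 on the log2 scale. They moved together with macrophage markers that are described below.

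The 12 genes that fell most were Tnni1, Bex1, Dlk1, H19, Ube2c, Bex4, Mest, Cited1, Ccnb2, Knstrn, Birc5 and Cdca3. Tnni1 (mm10 chr1:135779434-135810989, plus strand), the slow skeletal troponin I of the fetal heart, had 1.52, 1.23, 0.684 and 3.18 scaled TPM in the P21 libraries and 1967, 1968 and 1892 in the P1 libraries (log2 change -9.55 ± 0.26 (SE), adjusted p = 1.16e-09). This was the largest change of any gene under the naming rule, and an abundant transcript of the P1 hearts was close to absent from the P21 hearts. Bex1, a small adaptor protein gene on the X chromosome, had 2.75, 1.74, 1.49 and 1.71 scaled TPM in the P21 libraries and 136, 148 and 148 in the P1 libraries (log2 change -5.63 ± 0.18 (SE), adjusted p = 2.51e-09), and its relative Bex4 fell by 5.16. Cited1, a transcriptional co-regulator, had 1.55, 1.96, 2.61 and 1.24 scaled TPM in the P21 libraries and 71.8, 87.1 and 76.6 in the P1 libraries. The imprinted Dlk1, H19 and Mest are described with the imprinted genes below, and Ube2c and Ccnb2 with the genes of mitosis. Knstrn, a protein of the mitotic spindle, Birc5 (survivin), a subunit of the chromosomal passenger complex, and Cdca3, a trigger of entry into mitosis, fell by 4.63, 4.62 and 4.62.

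**Figure D2:**
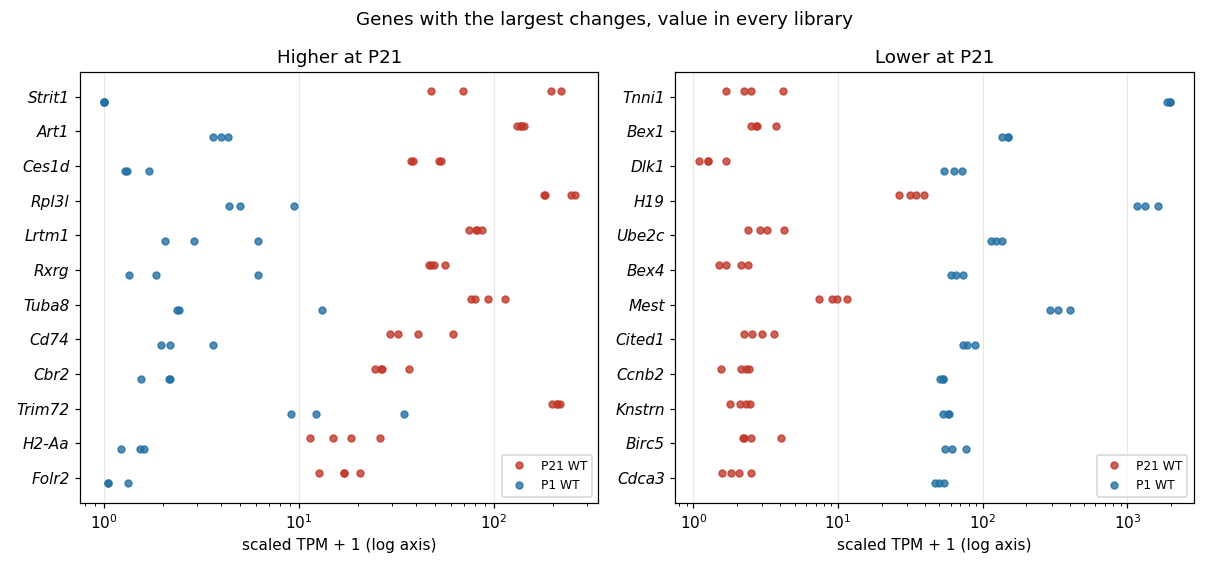
Scaled TPM + 1 (log axis) of the 12 genes that rose most (left) and the 12 that fell most (right) in each P21 (red) and P1 (blue) library. The P21 and P1 points of each gene are separate, as the naming rule requires. For Rpl3l, Lrtm1, Rxrg, Tuba8 and Trim72 the P1 point nearest P21 is library 3.

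Contractile protein genes changed isoform. Of 20 tested members of a list of fetal sarcomere and stress genes, 13 fell and 4 rose, with a median log2 change of -1.26. Vim, the mesenchymal intermediate filament vimentin, had 198, 178, 217 and 189 scaled TPM in the P21 libraries and 856, 917 and 743 in the P1 libraries (log2 change -2.11 ± 0.10 (SE), adjusted p = 2.64e-08). Myl9, a regulatory light chain of smooth and non-muscle myosin, had 89.9, 65.99, 87.2 and 92.6 scaled TPM in the P21 libraries and 528, 718 and 540.1 in the P1 libraries (log2 change -3.03 ± 0.20 (SE), adjusted p = 4.82e-07). The 4 that rose were Acta1, the skeletal alpha-actin, Clu, the secreted chaperone clusterin, Des, the muscle intermediate filament desmin, and Xirp2, a Z-disc-associated actin-binding protein. Acta1 had 190.1, 140.1, 159 and 222 scaled TPM in the P21 libraries and 35.02, 51.1 and 67.2 in the P1 libraries and was higher at P21 (log2 change 1.48 ± 0.33 (SE), adjusted p = 0.00255). Clu had 180.2, 189, 193 and 195 scaled TPM in the P21 libraries and 68.1, 81.1 and 77.7 in the P1 libraries.

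Of 27 adult sarcomere and energy-transfer genes, 17 rose and 1 fell, with a median of 0.74. On the deposited TPM the counts were 13 higher and 8 lower, and after quantile normalization they were 15 higher and 9 lower. Cmya5, the M-band-associated protein myospryn, had 75.7, 80.9, 74.97 and 71.3 scaled TPM in the P21 libraries and 10.2, 8.998 and 9.52 in the P1 libraries (log2 change 2.91 ± 0.07 (SE), adjusted p = 1.04e-09). Tcap, the titin cap of the Z-disc, had 1180.2, 1366, 1310.2 and 1028 scaled TPM in the P21 libraries and 169, 153 and 252 in the P1 libraries (log2 change 2.67 ± 0.18 (SE), adjusted p = 4.72e-07). Ckmt2, the mitochondrial creatine kinase of muscle, had 2151, 2119, 2213 and 1918 scaled TPM in the P21 libraries and 197, 151 and 322 in the P1 libraries (log2 change 3.19 ± 0.23 (SE), adjusted p = 8.6e-07). The 3 genes were separated between the ages by several-fold, far beyond the spread within an age. Synpo2l, a Z-disc actin-binding protein, was the exception that fell, with 51.5, 49.4, 56.4 and 55.5 scaled TPM in the P21 libraries and 167, 196 and 149 in the P1 libraries (log2 change -1.67 ± 0.10 (SE), adjusted p = 2.27e-07). The ventricular light chain Myl2 (0.15, adjusted p = 0.387), cardiac actin Actc1 (-0.05, adjusted p = 0.793) and Ckm, the muscle creatine kinase (0.23, adjusted p = 0.212), did not pass. Without library 3 of P1, Myl2 and Ckm passed, with log2 changes of 0.28 and 0.39.

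The share of 1 isoform in the summed TPM of its pair does not depend on the scaling. In all 17 pairs examined the P21 and P1 libraries did not overlap, and the share of the adult form was higher at P21 in 16. Of all single genes tested, 26.6% were higher and 29.1% lower at P21 without overlap of scaled TPM. The pairs were chosen with earlier results of these data known. The exact two-sided permutation p is 0.0571 in each, the smallest that 4 against 3 libraries can give, also after adjustment over the 17 pairs. Cardiac troponin I (Tnni3) made up 99.98% ± 0.0142 of the Tnni3 and Tnni1 sum at P21 and 64.02% ± 5.23 at P1 (SD, n = 4 and n = 3). The fast myosin heavy chain Myh6 made up 65.4, 65.5, 63.7 and 65.5% of the Myh6 and Myh7 sum in the P21 libraries and 39.4, 39.2 and 39.4% in the P1 libraries. Myh6 had 10105, 10393, 11198 and 10067 scaled TPM in the P21 libraries and 4182, 4641 and 5339.8 in the P1 libraries and rose (log2 change 1.03 ± 0.13 (SE), adjusted p = 6.05e-05), although quantile normalization gave a log2 change near 0 (log2 change -0.01). Myh7, the slow form, had 5349, 5479.6, 6388 and 5311 scaled TPM in the P21 libraries and 6423, 7201 and 8215 in the P1 libraries and fell (log2 change -0.50 ± 0.13 (SE), adjusted p = 0.00647). With the letter-coded libraries alone Myh7 did not pass (adjusted p = 0.0524). At P7 it stood at 2872, 2978, 4226, 3763 and 3713 scaled TPM. The 2 genes are near-identical neighbours whose reads may have been split between them in the authors' quantification, so their levels are uncertain. Tropomyosin alpha (Tpm1) had a share of 99.9% ± 0.00432 at P21 and 98.7% ± 0.258 at P1 against Tpm2. The ventricular light chains Myl2 and Myl3 had shares of 99.5% ± 0.0864 and 99.4% ± 0.135 at P21, and 98.2% ± 1.63 and 94.9% ± 2.75 at P1, against the atrial Myl7 and Myl4. The Myl2 share was 96.4% in library 2 of P1, against 99.2% and 99.1% in libraries 1 and 3 of P1. The part of the amount of atrial tissue in the light chain shares was not tested. Cardiac actin was the only adult form with a lower share at P21, 98.3% ± 0.365 against 99.5% ± 0.134 at P1.

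Isoform shares moved in energy metabolism as well. The heart forms of cytochrome oxidase subunits Cox6a2, Cox7a1 and Cox8b made up 88.2% ± 0.571, 81.3% ± 0.344 and 82.9% ± 1.19 of their pairs at P21, against 53.5% ± 3.86, 48.7% ± 3.08 and 41.5% ± 7.74 at P1. Hexokinase 2 (Hk2) had 56.1% ± 1.47 at P21 and 19.3% ± 5.88 at P1, next to Hk1. Muscle enolase Eno3 had 88.2% ± 1.82 at P21 and 54.8% ± 5.98 at P1, next to Eno1. The insulin-sensitive glucose transporter Slc2a4 (GLUT4) already made up most of its pair with Slc2a1 (GLUT1) at P1, with 80.6% ± 1.1, and reached 98.3% ± 0.177 at P21. The heart-type lactate dehydrogenase Ldhb had 72.7% ± 0.956 at P21 and 60.6% ± 0.457 at P1. The muscle ribosomal paralog Rpl3l had the widest change of all, 45.7, 46.6, 52.9 and 57.98% of the Rpl3l and Rpl3 sum in the P21 libraries and 0.695, 0.567 and 1.22% in the P1 libraries. The P21 shares of Cpt1b, the muscle carnitine palmitoyltransferase, came closest to the P1 shares, with 91.6, 92.6, 93.7 and 92.96% at P21 and 85.5, 85.5 and 91.4% at P1.

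**Figure D3:**
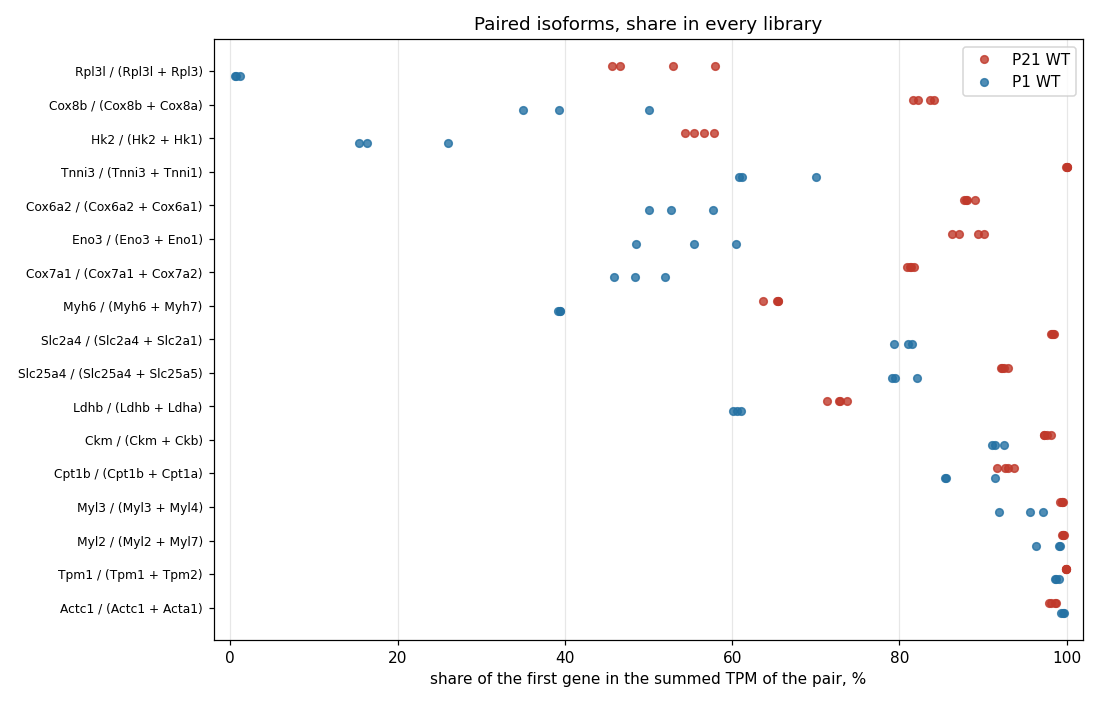
Share (%) of the first-named gene in the summed TPM of its pair, in each P21 (red, upper) and P1 (blue, lower) library for 17 pairs, ordered by the difference. Rpl3l has the largest difference, 50.81% at P21 and 0.827% at P1, and cardiac actin Actc1 at the bottom is the only pair with a lower share at P21.

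Calcium handling and potassium channel genes rose in large part. Of 25 calcium genes, 14 rose and 1 fell, with a median of 0.49 (8 higher and 7 lower on the deposited TPM). Hrc, the histidine-rich calcium-binding protein of the sarcoplasmic reticulum, had 537, 565, 531 and 516 scaled TPM in the P21 libraries and 70.6, 57.7 and 107 in the P1 libraries (log2 change 2.77 ± 0.18 (SE), adjusted p = 4.49e-07). Triadin (Trdn), which anchors calsequestrin to the ryanodine receptor, had 186, 202, 195 and 191 scaled TPM in the P21 libraries and 68.2, 61.6 and 73.3 in the P1 libraries (log2 change 1.53 ± 0.08 (SE), adjusted p = 7.65e-08). The calcium channel subunit Cacna2d1 had 48.7, 49.5, 57.7 and 53.1 scaled TPM in the P21 libraries and 16.5, 16.7 and 15.7 in the P1 libraries (log2 change 1.59 ± 0.07 (SE), adjusted p = 2.4e-08). In these genes no P21 value came near the P1 range. The calcium pump SERCA2 (Atp2a2) averaged 4558 ± 238 at P21 and 1798 ± 157 at P1 scaled TPM (SD, n = 4 and n = 3), and its inhibitor phospholamban (Pln) 3867 ± 175 at P21 and 2336 ± 169 at P1. Their log2 changes were 1.29 and 0.72, and that of Pln was -0.18 after quantile normalization. The S100a1 gene, whose product binds both the pump and the release channel, rose by 1.22. The exception that fell was Slc8a1, the sodium-calcium exchanger, with 61.5, 62.1, 57.9 and 82.2 scaled TPM in the P21 libraries and 125, 129.7 and 65.3 in the P1 libraries (log2 change -0.71 ± 0.23 (SE), adjusted p = 0.0209). Its lowest P1 library lies within the P21 range, and the call was lost without library 1 or 2 of P1 or library 2 or 3 of P21, with adjusted p of 0.0544 to 0.081.

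Of 23 sodium, potassium and pacemaker channel genes, 17 rose and 3 fell, with a median of 1.01 (14 higher and 4 lower on the deposited TPM). Kcnd2 and Kcnd3, the pore subunits of the fast transient outward current, had 10.7, 10.1, 13.1 and 10.97 and 3.92, 3.78, 4.03 and 5.02 scaled TPM at P21, against 1.77, 1.59 and 1.24 and 0.218, 0.38 and 0.432 at P1. Both were low at P7 too, at 1.28, 1.98, 2.01, 2.14 and 2.25 and 0.324, 0.239, 0.37, 0.427 and 0.413. Neither overlapped between P21 and P1. Kcnj11, the pore of the ATP-sensitive potassium channel, had 54.3, 61.2, 58.5 and 61.7 scaled TPM in the P21 libraries and 29.6, 28.9 and 31.8 in the P1 libraries, and Scn7a, a sodium channel-like gene, 4.76, 4.36, 4.14 and 4.68 scaled TPM in the P21 libraries and 1.12, 1.17 and 0.929 in the P1 libraries. The 3 that fell were Kcne1 (-1.48) and Kcnq1 (-0.43), the 2 subunits of the slow delayed rectifier, and Popdc2 (-0.48), a cAMP-binding membrane protein.

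Junction genes were mixed. Of 17 genes of the intercalated disc and gap junction, 7 rose and 4 fell, with a median of -0.02 (2 higher and 9 lower on the deposited TPM). Tmem65, an intercalated disc membrane protein, had 68.9, 69.4, 66.6 and 63.2 scaled TPM in the P21 libraries and 29.2, 26.7 and 27.8 in the P1 libraries and rose (log2 change 1.20 ± 0.09 (SE), adjusted p = 1.33e-06). The desmosome genes did not move together: Dsc2 (desmocollin 2) and Dsp (desmoplakin) rose by 1.05 and 0.68, while Pkp2 (plakophilin 2) fell by 0.68. Gja5 (connexin 40), the gap junction protein of atria and conduction tissue, had 2.69, 2.94, 3.31 and 3.04 scaled TPM in the P21 libraries and 14.1, 14.001 and 7.28 in the P1 libraries (log2 change -1.67 ± 0.19 (SE), adjusted p = 2.91e-05).

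Genes for burning fatty acids rose as a group. Of 29 genes of fatty acid uptake and oxidation, 23 rose, 2 fell and 4 did not pass, with a median of 0.66, against -0.03 for all genes. On the deposited TPM the counts were 13 higher and 7 lower. Lpl, which frees fatty acids from lipoproteins at the vessel wall, had 1124, 1145, 951 and 1211 scaled TPM in the P21 libraries and 356, 398 and 389.7 in the P1 libraries (log2 change 1.51 ± 0.12 (SE), adjusted p = 1.76e-06). Cd36, the fatty acid translocase, had 625, 584, 526 and 601 scaled TPM in the P21 libraries and 334, 292 and 305 in the P1 libraries (log2 change 0.95 ± 0.09 (SE), adjusted p = 5.63e-06), and the transporter Slc27a1 80.7, 81.8, 71.03 and 70.4 scaled TPM in the P21 libraries and 37.3, 31.7 and 38.7 in the P1 libraries (log2 change 1.12 ± 0.11 (SE), adjusted p = 8.16e-06). The P1 libraries lie below every P21 library in all 3 genes. Inside the mitochondrion, Cpt2 and the medium-chain dehydrogenase Acadm averaged 113 ± 8.03 and 713 ± 48.2 at P21, against 44.2 ± 9.29 and 343 ± 43.5 at P1 (SD, n = 4 and n = 3). The rate-limiting Cpt1b did not pass, with 246, 234, 265 and 225 scaled TPM in the P21 libraries and 226, 202 and 227 in the P1 libraries (log2 change 0.12 ± 0.08 (SE), adjusted p = 0.229), and at P7 it was at 289.5, 301, 334, 309 and 299. Those that fell were Cpt1a, the liver form, by 0.56 and Acot2, a mitochondrial acyl-CoA thioesterase, by 1.04. The call of Cpt1a was lost without library 1 or 2 of P1 or library 3 of P21, with adjusted p of 0.0649 to 0.0728.

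Pyruvate entry and the citric acid cycle moved in the same direction. Of 26 genes, 23 rose, 1 fell (Idh2, the NADP-dependent isocitrate dehydrogenase, by 0.67) and 2 did not pass, with a median of 0.67 (11 higher and 4 lower on the deposited TPM). Mpc1, a subunit of the mitochondrial pyruvate carrier, had 677, 693, 722 and 669 scaled TPM in the P21 libraries and 199.8, 209.9 and 261 in the P1 libraries (log2 change 1.54 ± 0.11 (SE), adjusted p = 8.88e-07). Ogdh, the 2-oxoglutarate dehydrogenase, had 667, 664, 679.7 and 688 scaled TPM in the P21 libraries and 226, 222 and 256 in the P1 libraries (log2 change 1.40 ± 0.11 (SE), adjusted p = 1.96e-06). Pdha1, Sucla2 and Cs (pyruvate dehydrogenase, succinyl-CoA ligase and citrate synthase) rose by 0.96, 1.17 and 0.88. Ketone and branched-chain amino acid use gave 12 of 16 higher and 1 lower, with a median of 0.73 (6 higher and 4 lower on the deposited TPM). Oxct1, the enzyme that commits ketone bodies to oxidation, had 488, 485, 438 and 435 scaled TPM in the P21 libraries and 127, 133 and 123 in the P1 libraries (log2 change 1.78 ± 0.16 (SE), adjusted p = 3.43e-06). Bdh1, the ketone body dehydrogenase, was the one that fell, with 0.632, 2.74, 0.628 and 0.854 scaled TPM in the P21 libraries and 3.26, 4.22 and 3.25 in the P1 libraries (log2 change -1.17 ± 0.32 (SE), adjusted p = 0.00972), and with the letter-coded libraries alone it did not pass (adjusted p = 0.0573). Of the branched-chain steps, Bckdha, Mccc2, Hibadh and Auh rose by 1.06, 0.87, 0.76 and 0.71.

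Glycolysis genes split. Of 24, 9 rose and 10 fell, with a median of -0.03, the value of the median gene (5 higher and 15 lower on the deposited TPM). The muscle phosphofructokinase Pfkm had 455, 478, 481 and 494 scaled TPM in the P21 libraries and 188, 171 and 217 in the P1 libraries (log2 change 1.25 ± 0.09 (SE), adjusted p = 6.83e-07). Pfkfb2, the heart enzyme that makes the phosphofructokinase activator fructose 2,6-bisphosphate, had 18.7, 21.6, 23.7 and 32.9 scaled TPM in the P21 libraries and 3.96, 5.77 and 3.09 in the P1 libraries (log2 change 2.06 ± 0.18 (SE), adjusted p = 3.46e-06). Slc2a1 fell, with 2.5, 3.17, 3.31 and 3.405 scaled TPM in the P21 libraries and 11.98, 16.9 and 16.5 in the P1 libraries (log2 change -2.11 ± 0.15 (SE), adjusted p = 8.6e-07), and so did Aldoc, the brain aldolase, with 0.773, 0.053, 0.488 and 0.289 scaled TPM in the P21 libraries and 6.904, 6.996 and 5.99 in the P1 libraries (log2 change -2.40 ± 0.20 (SE), adjusted p = 1.96e-06). The muscle or heart forms rose (Slc2a4 by 1.33, Hk2 by 1.80, Eno3 by 0.96, Ldhb by 0.53) and the widely expressed forms fell (Hk1 by 0.57, Eno1 by 1.34, Ldha by 0.30). The fall of Ldha did not hold without library 3 of P1 (adjusted p = 0.056) or library 2 of P21 (adjusted p = 0.085), and on the deposited TPM Ldhb was lower, at -0.03.

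Nuclear genes of the respiratory chain rose by less than 2-fold in most cases. In complex I 34 of 36 subunits rose and none fell, with log2 changes of 0.05 to 1.06 and a median of 0.66. On the deposited TPM the counts were 6 higher and 1 lower. Ndufs1, the largest subunit, had 415, 436, 429.9 and 419 scaled TPM in the P21 libraries and 263, 260.4 and 260.1 in the P1 libraries (log2 change 0.68 ± 0.06 (SE), adjusted p = 5e-06), and Ndufs7 670.2, 692, 747 and 628 scaled TPM in the P21 libraries and 299, 288 and 399 in the P1 libraries (log2 change 0.9999 ± 0.12 (SE), adjusted p = 4.92e-05). The spread within an age was small beside these differences. In complexes II and III 12 of 13 rose (3 higher and 2 lower on the deposited TPM), with Uqcrb at 1682 ± 78.3 at P21 and 925 ± 137 at P1 (SD, n = 4 and n = 3). In complex IV 10 of 15 rose and 2 fell. The falls were those of Cox6a1 and Cox8a, the liver-type partners of the heart isoforms, with log2 changes of -1.63 and -1.16. Cox7a1, the heart form of subunit 7a, had 2619.7, 2787, 3549 and 2717 scaled TPM in the P21 libraries and 476, 463 and 790.5 in the P1 libraries (log2 change 2.29 ± 0.18 (SE), adjusted p = 1.7e-06). In complex V 11 of 16 rose and Atpif1, the inhibitor of the ATP synthase, fell, with 334, 349, 400.2 and 331 scaled TPM in the P21 libraries and 679, 699 and 843 in the P1 libraries (log2 change -1.08 ± 0.10 (SE), adjusted p = 5.82e-06). Complex IV counted 4 higher and 4 lower and complex V 1 higher and 3 lower on the deposited TPM, and 8 higher and 3 lower and 5 higher and 3 lower after quantile normalization.

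The transcripts of the mitochondrial genome rose in large part. Of 13, 11 rose and none fell, with a median of 1.67 (8 higher and 0 lower on the deposited TPM). Their summed level was 303040, 311580, 314370 and 266780 scaled TPM in the P21 libraries and 147670, 132550 and 124580 in the P1 libraries. mt-Nd4 had 15594, 16244, 16892 and 12969.7 scaled TPM in the P21 libraries and 3876, 3352 and 4814 in the P1 libraries (log2 change 1.97 ± 0.15 (SE), adjusted p = 1.08e-06), and mt-Cytb 9499, 10048, 10145 and 7766 scaled TPM in the P21 libraries and 2744, 2500.1 and 1952 in the P1 libraries (log2 change 1.97 ± 0.15 (SE), adjusted p = 1.17e-06). A group of 7 annotated pseudogenes (Gm28661, Gm28437, Gm10222, Gm28438, Gm10925, Gm29216 and Gm28439) shares 97.2% to 100% of its 31-base words with mitochondrial transcripts. They held 22.4% ± 0.497 of all TPM at P21 and 13.7% ± 0.875 at P1 (SD, n = 4 and n = 3), about as much again as the mitochondrial genes, and all 7 rose. The authors' quantification may have split reads between these copies and the mitochondrial genes, so the levels of both, and the sums above, are uncertain. After quantile normalization, which sets the highest values of all libraries equal, 7 of the 13 mitochondrial genes were higher and 1 was lower.

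Regulators and the machinery of mitochondria changed in part. Of 23 biogenesis regulators and nuclear receptors, 12 rose and 2 fell (5 higher and 7 lower on the deposited TPM). The falls were those of Nrf1, a regulator of nuclear genes for mitochondria, and the thyroid hormone receptor Thra. Thrb, the other thyroid hormone receptor, had 6.48, 6.98, 5.13 and 6.28 scaled TPM in the P21 libraries and 0.335, 0.653 and 0.57 in the P1 libraries (log2 change 2.21 ± 0.15 (SE), adjusted p = 4.91e-07), against -0.59 for Thra. Perm1, a muscle regulator of oxidative genes, had 110.2, 108, 131 and 107 scaled TPM in the P21 libraries and 34.2, 32.7 and 34.7 in the P1 libraries (log2 change 1.60 ± 0.10 (SE), adjusted p = 4.01e-07). Ppargc1a, the coactivator PGC-1alpha, did not pass (log2 change 0.32 ± 0.27 (SE), adjusted p = 0.339), and Ppara, the fatty acid receptor, rose by 1.09; both were chosen after their values were seen. Of 23 genes of fission, fusion and mitophagy, 16 rose and only Bnip3l, a mitophagy receptor, fell, by 0.22 (7 higher and 8 lower on the deposited TPM). The call of Bnip3l was lost without library 1 or 3 of P1, without any 1 of the P21 libraries and without library 1, 72, 76 or 77 of P7, with adjusted p of 0.0528 to 0.196. The outer membrane fusion protein Mfn2 had 282, 286, 317 and 311 scaled TPM in the P21 libraries and 173, 174 and 153 in the P1 libraries (log2 change 0.74 ± 0.07 (SE), adjusted p = 8.29e-06). Opa1, which fuses the inner membrane, and Oma1, the protease that cleaves it, rose by 0.90 and 1.31. Mtfp1, an inner membrane protein that promotes fission, had 106, 106, 117 and 102 scaled TPM in the P21 libraries and 14.5, 14.9 and 34.1 in the P1 libraries (log2 change 2.34 ± 0.26 (SE), adjusted p = 1.81e-05). Of 38 mitochondrial ribosome genes, 17 rose and 2 fell, and without library 3 of P1 the counts were 28 higher and 2 lower (2 higher and 20 lower on the deposited TPM). Mrps14 rose by 0.91 and Mrpl23 fell by 0.9994.

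Genes of DNA replication and mitosis fell almost without exception, on the deposited TPM as after scaling. Of 26 replication genes 25 fell, and Pola1, a polymerase alpha subunit, did not pass, with a median of -1.37. All 26 mitosis genes fell, with a median of -3.47. Rrm2, the ribonucleotide reductase subunit made in S phase, had 1.701, 1.74, 1.8 and 2.33 scaled TPM in the P21 libraries and 41.5, 41.9 and 50.7 in the P1 libraries (log2 change -3.95 ± 0.13 (SE), adjusted p = 3.22e-09). Mcm7 of the replicative helicase had 9.42, 7.49, 7.17 and 7.76 scaled TPM in the P21 libraries and 34.4, 32.5 and 31.9 in the P1 libraries (log2 change -1.83 ± 0.09 (SE), adjusted p = 5.74e-08), and the other reductase subunit Rrm1 6.74, 7.09, 8.11 and 7.63 scaled TPM in the P21 libraries and 29.04, 28.4 and 36.98 in the P1 libraries (log2 change -1.99 ± 0.10 (SE), adjusted p = 5.98e-08). Ccna2 (cyclin A2) had 1.58, 1.27, 1.395 and 1.13 scaled TPM in the P21 libraries and 47.2, 54.1 and 50.9 in the P1 libraries (log2 change -4.40 ± 0.10 (SE), adjusted p = 1.04e-09). Ccnb2 (cyclin B2) had 1.302, 0.543, 1.41 and 1.14 scaled TPM in the P21 libraries and 51.8, 49.3 and 52.1 in the P1 libraries (log2 change -4.72 ± 0.15 (SE), adjusted p = 2.76e-09). The P21 values of the mitotic genes are near or below 2 scaled TPM in most libraries. Cdc20, which activates the anaphase-promoting complex, and Ube2c, the ubiquitin-conjugating enzyme of that complex, had 1.75, 1.46, 1.03 and 1.18 and 1.91, 2.23, 3.21 and 1.37 scaled TPM at P21, against 48.9, 57.7 and 56.6 and 112, 123 and 134 at P1. At P7 they were at 37.5, 27.7, 30.4, 29.4 and 29.1 and 73.6, 53.6, 67.2, 57.9 and 57.9, between both ages. The mitosis list as a sum also lay between, with 864.2 ± 51.1 at P1, 556.6 ± 60.9 at P7 and 33.49 ± 4.46 at P21 (SD, n = 3, 5 and 4). The replication list did not: its sum was 378.7 ± 70.5 at P1, 470.9 ± 31.8 at P7 and 113.1 ± 8.34 at P21. Its P1 and P7 libraries overlapped, at 326.9 to 459 and 432.6 to 503.

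Promoter letters of cell cycle genes are shown because the members fell together. RefSeq windows (GRCm38.p6) from 250 bases before to 50 after the start were searched on both strands for TTTGAA, the cell cycle homology region, which binds repressor and activator complexes of G2 and M genes, for the CCAAT box, which is bound by NF-Y, and for the E2F-type letters GGCGGGAA. None of the 3 motifs contains another on either strand. Of 32851 windows in all, 17.9% held TTTGAA, 37.4% held CCAAT and 2.19% held GGCGGGAA. Of the mitosis list 22 of 26 genes matched, with 24 windows, of which 75% held TTTGAA and 83.3% CCAAT. Of the windows of the replication list 19.2% held GGCGGGAA, 57.7% held CCAAT and 15.4% held TTTGAA. In the citric acid cycle list, most of whose genes rose, 66.7% of windows held CCAAT and 10% held TTTGAA. The 150 bases before the start follow, on the strand of the gene, with the matches in capitals on either strand.
Ccnb2 (chr9:70421555-70421704, minus strand): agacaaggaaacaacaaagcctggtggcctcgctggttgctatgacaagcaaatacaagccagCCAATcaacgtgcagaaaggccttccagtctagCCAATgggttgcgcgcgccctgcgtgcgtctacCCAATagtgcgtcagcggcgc
Cdc20 (chr4:118437344-118437493, minus strand): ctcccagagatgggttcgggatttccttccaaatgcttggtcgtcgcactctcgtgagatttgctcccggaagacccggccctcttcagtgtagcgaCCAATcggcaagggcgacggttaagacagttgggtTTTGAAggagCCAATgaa
Ube2c (chr2:164769779-164769928, plus strand): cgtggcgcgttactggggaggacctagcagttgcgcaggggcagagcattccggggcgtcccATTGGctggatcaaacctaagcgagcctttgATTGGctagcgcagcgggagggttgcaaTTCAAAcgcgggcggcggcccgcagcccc
Rrm1 (chr7:102441545-102441694, plus strand): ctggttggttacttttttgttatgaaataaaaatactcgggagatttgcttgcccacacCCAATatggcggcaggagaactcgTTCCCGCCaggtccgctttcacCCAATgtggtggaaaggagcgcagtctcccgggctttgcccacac
In Ccnb2, CCAAT begins 87, 54 and 21 bases before the start. In Cdc20, CCAAT begins at 53 and 8 bases and TTTGAA at 18. In Ube2c, CCAAT lies at 88 and 57 bases and TTTGAA at 29. In Rrm1, GGCGGGAA lies at 67 bases and CCAAT at 91 and 45. A match is a description of the letters and no evidence of binding. For comparison, the letters AAGGTCA, a nuclear receptor element of the ERR type, were in 4.72% of all windows. Among lists that rose in large part, they were in 3 of 34 complex I windows (8.82%) and 2 of 30 citric acid cycle windows (6.67%). Fatty acid oxidation had 1 of 27 (3.7%) and adult sarcomere genes 1 of 33 (3.03%). Among lists that fell, they were in 2 of 26 replication windows (7.69%) and 2 of 36 cytosolic ribosome windows (5.56%). Imprinted genes had 1 of 27 (3.7%) and mitosis genes 0 of 24. These counts are small.

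Regulators of the G1 phase fell in part. Of 23 D cyclins, cyclin-dependent kinases, E2F factors and inhibitors, 13 fell and only Rb1, the retinoblastoma gene, rose, by 0.32, with a median of -0.74. The call of Rb1 was lost without library 2 of P1 (adjusted p = 0.0889) or library 3 of P21 (adjusted p = 0.0556), and its log2 change was -0.17 on the deposited TPM. Cdk4 had 39.4, 41.4, 33.98 and 39.1 scaled TPM in the P21 libraries and 90.7, 86.8 and 98.2 in the P1 libraries (log2 change -1.21 ± 0.08 (SE), adjusted p = 5.46e-07). Myc, the growth-promoting transcription factor, had 1.47, 1.35, 3.06 and 1.99 scaled TPM in the P21 libraries and 9.07, 12.02 and 11.96 in the P1 libraries (log2 change -2.21 ± 0.15 (SE), adjusted p = 6.46e-07), and E2f8, a repressor of the E2F family, 0.464, 0.344, 0.53 and 0.602 scaled TPM in the P21 libraries and 3.62, 3.61 and 3.899 in the P1 libraries (log2 change -1.69 ± 0.11 (SE), adjusted p = 3.28e-07). The inhibitor Cdkn2c (p18) fell too, with 10.6, 10.3, 9.27 and 9.94 scaled TPM in the P21 libraries and 26.6, 26.3 and 31.1 in the P1 libraries (log2 change -1.36 ± 0.10 (SE), adjusted p = 9.86e-07).

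All 17 tested imprinted growth genes fell, also on the deposited TPM, with a median of -1.69. These genes are expressed from 1 parental copy and control growth before and after birth. Igf2 (mm10 chr7:142650766-142666816, minus strand), the fetal growth factor, had 65.1, 59.2, 55.4 and 49.8 scaled TPM in the P21 libraries and 839, 805 and 736 in the P1 libraries (log2 change -3.74 ± 0.10 (SE), adjusted p = 1.04e-09). Its neighbour, the non-coding RNA H19 (mm10 chr7:142575529-142578143, minus strand), had 33.8, 38.4, 25.4 and 30.2 scaled TPM in the P21 libraries and 1322, 1638 and 1165 in the P1 libraries (log2 change -5.32 ± 0.14 (SE), adjusted p = 1.04e-09). The P7 values lie between, at 300.1, 332, 352, 333 and 328 for Igf2 and 336, 357, 347, 378 and 353 for H19. Dlk1, a ligand of the Notch type, had 0.258, 0.093, 0.684 and 0.265 scaled TPM in the P21 libraries and 62.05, 70.6 and 53.3 in the P1 libraries (log2 change -5.53 ± 0.23 (SE), adjusted p = 1.12e-08), Mest 10.5, 8.15, 6.36 and 8.81 scaled TPM in the P21 libraries and 333, 399 and 293 in the P1 libraries (log2 change -5.11 ± 0.15 (SE), adjusted p = 1.61e-09), and Plagl1, a zinc finger regulator of this network, 10.4, 11.8, 9.57 and 8.72 scaled TPM in the P21 libraries and 156, 163 and 99.5 in the P1 libraries (log2 change -3.54 ± 0.15 (SE), adjusted p = 1.79e-08). The receptor Igf2r, which clears the growth factor, fell as well, by 1.69 on the log2 scale, and was chosen after its value was seen. Among RNA-binding regulators, the 3 Igf2 mRNA-binding proteins fell: Igf2bp2 had 3.196, 2.199, 1.74 and 3.06 scaled TPM in the P21 libraries and 14.9, 14.6 and 11.9 in the P1 libraries, Igf2bp3 averaged 0.612 ± 0.307 at P21 and 7.11 ± 2.14 at P1, and Igf2bp1 0.0531 ± 0.0528 at P21 and 2.91 ± 0.585 at P1 (SD, n = 4 and n = 3). The splicing regulators Rbfox1 and Mbnl1 rose by 1.69 and 1.22. In that list of 16, 6 rose and 8 fell (2 higher and 10 lower on the deposited TPM).

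Cytosolic ribosome and cholesterol genes fell. Of 40 ribosomal protein genes 38 fell and none rose, with log2 changes of -1.55 to -0.03 and a median of -0.61 (0 higher and 40 lower on the deposited TPM). Rpl3, the general L3 protein, fell most under the naming rule, with 216, 205, 219.6 and 188 scaled TPM in the P21 libraries and 568, 597 and 684 in the P1 libraries (log2 change -1.55 ± 0.09 (SE), adjusted p = 1.28e-07). Rps7 had 395, 389, 344 and 409.5 scaled TPM in the P21 libraries and 587, 616 and 668 in the P1 libraries (log2 change -0.71 ± 0.08 (SE), adjusted p = 3.08e-05). These genes have many processed pseudogenes that can share their reads. Of 22 genes of cholesterol synthesis and uptake, 15 fell and none rose, with a median of -0.50. Srebf2, the transcription factor that controls the pathway, had 11.6, 12.9, 13.3 and 13.4 scaled TPM in the P21 libraries and 33.1, 30.9 and 25.3 in the P1 libraries (log2 change -1.23 ± 0.10 (SE), adjusted p = 2.25e-06). Its P21 libraries are all below its P1 libraries.

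Matrix genes were remodelled. Of 20 collagens 15 fell and 3 rose, with a median of -0.78, and their summed level was 1208, 1114, 989 and 1193 scaled TPM in the P21 libraries and 1638, 1758 and 1620.1 in the P1 libraries. Col1a1, a chain of the main fibrillar collagen, had 58.1, 55.4, 49.99 and 59.6 scaled TPM in the P21 libraries and 144, 157 and 121 in the P1 libraries (log2 change -1.37 ± 0.13 (SE), adjusted p = 5.13e-06), and at P7 it was at 148, 129, 148, 164 and 182. Col18a1, a basement membrane collagen, had 6.16, 6.65, 7.02 and 5.94 scaled TPM in the P21 libraries and 52.1, 52.1 and 35.8 in the P1 libraries (log2 change -2.73 ± 0.15 (SE), adjusted p = 8.26e-08). Those that rose were Col8a1 (1.42), Col15a1 (0.73) and Col5a3 (1.78). Of 35 other matrix genes 17 fell and 9 rose (6 higher and 23 lower on the deposited TPM). Postn (periostin), a product of activated and fetal fibroblasts, had 49.98, 41.1, 32.4 and 36.8 scaled TPM in the P21 libraries and 312, 332 and 299.7 in the P1 libraries (log2 change -2.87 ± 0.11 (SE), adjusted p = 8.21e-09), and Fn1 (fibronectin) 32.6, 32.2, 23.5 and 27.2 scaled TPM in the P21 libraries and 147, 154 and 131 in the P1 libraries (log2 change -2.27 ± 0.13 (SE), adjusted p = 1.55e-07). The small leucine-rich proteoglycans went the other way: Dcn (decorin) had 379, 377, 359 and 374 scaled TPM in the P21 libraries and 151, 146 and 169 in the P1 libraries (log2 change 1.30 ± 0.09 (SE), adjusted p = 6.39e-07) and Ogn (osteoglycin) 72.1, 74.1, 64.1 and 66.8 scaled TPM in the P21 libraries and 26.3, 22.9 and 24.97 in the P1 libraries (log2 change 1.60 ± 0.10 (SE), adjusted p = 3.4e-07). The fibroblast markers were split too, with 3 of 8 higher (Dcn, Lum and Dpt) and 4 lower (Col1a1, Col1a2, Tcf21 and Pcolce), and their summed level was 777, 745, 689 and 747 in the P21 libraries and 678, 713 and 684 in the P1 libraries, with overlap.

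The labelled tissue was checked against markers of cell types. Cardiomyocyte markers were abundant at both ages, at 59339, 62938, 68073 and 61997 scaled TPM in sum in the P21 libraries and 42241, 44426 and 51565 in the P1 libraries. Of these, 4 of 8 rose and Actn2 fell (3 higher and 4 lower on the deposited TPM), and the list's median of 0.49 turned to -0.34 after quantile normalization. Atrial markers fell in 4 of 5, with sums of 365, 410.2, 691 and 351 at P21 and 1574, 2564 and 1872 at P1. The remaining marker, Sln, did not pass, with 3.42, 7.39, 5.05 and 3.14 scaled TPM in the P21 libraries and 0.987, 12.4 and 1.32 in the P1 libraries. Nppa, the atrial natriuretic peptide, had 238, 225, 536 and 242 scaled TPM in the P21 libraries and 1168, 1461 and 1456 in the P1 libraries (log2 change -2.45 ± 0.29 (SE), adjusted p = 3.46e-05). Myl7 had 67.2, 100.1, 89.7 and 62.2 scaled TPM in the P21 libraries and 110.1, 527 and 159.8 in the P1 libraries and Myl4 56.3, 77.7, 59.95 and 43.7 scaled TPM in the P21 libraries and 290.3, 556 and 252 in the P1 libraries, and their spread over the P1 libraries was wide. The fall of Myl7 did not hold without library 2 or 3 of P1, library 2, 57 or 60 of P21 or library 76 of P7, with adjusted p of 0.0503 to 0.16. Bmp10, a growth factor of atrial trabeculae, had 4.43, 8.31 and 3.38 at P1 and was listed at 0 in every P21 library. The part of the amount of atrial tissue in these changes was not tested.

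Endothelial markers stayed near the median gene, with 1 of 8 higher (Kdr) and 1 lower (Cdh5), and sums of 549, 539.9, 465 and 539 at P21 and 483, 469.6 and 573 at P1. Kdr had 48.5, 47.6, 26.7 and 53.5 scaled TPM in the P21 libraries and 32.1, 27.7 and 32.7 in the P1 libraries. In library 57 of P21 it was thus below every P1 library. Without library 3 of P1 the counts were 3 higher and 1 lower, and on the deposited TPM 0 higher and 5 lower. Of the mural markers, Rgs5, a pericyte gene, had 312, 314, 241 and 231 scaled TPM in the P21 libraries and 80.7, 62.3 and 131 in the P1 libraries (log2 change 1.83 ± 0.21 (SE), adjusted p = 2.4e-05), 3 of 8 rose, and Cspg4, a pericyte proteoglycan, fell by 0.82 (3 higher and 4 lower on the deposited TPM). Epicardial markers fell in 3 of 5, with sums of 41.02, 34.03, 38.5 and 36.8 at P21 and 54.3, 59.6 and 47.7 at P1. Red cell transcripts had sums at P21 of 14200, 21445, 18711 and 7489.7 and, at P1, 3196, 5449.5 and 7654; the lowest P21 library lay within the P1 range, and the near-identical globin genes can share reads. Skeletal muscle markers summed to 259.9, 209, 227 and 281 at P21 and 73.6, 105 and 104 at P1, of which Acta1 averaged 178 ± 35.9 at P21 and 51.1 ± 16.1 at P1 (SD, n = 4 and n = 3). Lung, liver and lymphoid markers were too low to test. Their sums were at most 2.35 scaled TPM in all P21 and P1 libraries apart from 14.3 for the liver markers in 1 P21 library.

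Macrophage and antigen presentation genes rose. Of 8 macrophage markers 7 rose, and Fcgr1, an Fc receptor, did not pass. Their sums were 230.3, 183, 302 and 192 at P21 and 56.3, 53.99 and 62.2 at P1. Mrc1, the mannose receptor of resident macrophages, had 14.6, 10.2, 13.8 and 12.7 scaled TPM in the P21 libraries and 3.25, 2.498 and 3.12 in the P1 libraries (log2 change 1.76 ± 0.12 (SE), adjusted p = 7.01e-07), and the complement gene C1qa 65.03, 56.9, 93.3 and 58.03 scaled TPM in the P21 libraries and 14.1, 13.8 and 19.1 in the P1 libraries (log2 change 1.88 ± 0.16 (SE), adjusted p = 3.24e-06). Of 22 interferon and antigen presentation genes, 16 rose and none fell, with a median of 1.16 (14 higher and 2 lower on the deposited TPM). The largest rises were those of class II genes, which are made by professional antigen-presenting cells. Cd74, the invariant chain, had 39.9, 31.2, 60.6 and 28.2 scaled TPM in the P21 libraries and 0.971, 1.19 and 2.62 in the P1 libraries (log2 change 3.96 ± 0.34 (SE), adjusted p = 3.2e-06), H2-Aa 17.5, 13.99, 25.2 and 10.4 scaled TPM in the P21 libraries and 0.226, 0.538 and 0.598 in the P1 libraries (log2 change 3.63 ± 0.29 (SE), adjusted p = 1.52e-06), and H2-Eb1 18.6, 12.9, 24.9 and 10.1 scaled TPM in the P21 libraries and 0.962, 0.67 and 1.67 in the P1 libraries (log2 change 3.11 ± 0.29 (SE), adjusted p = 6.02e-06). They moved with the macrophage markers, and the part of cell number in the rise was not tested. Tap2, a peptide transporter of the class I pathway that most cells use, rose by 1.09.

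**Figure D4:**
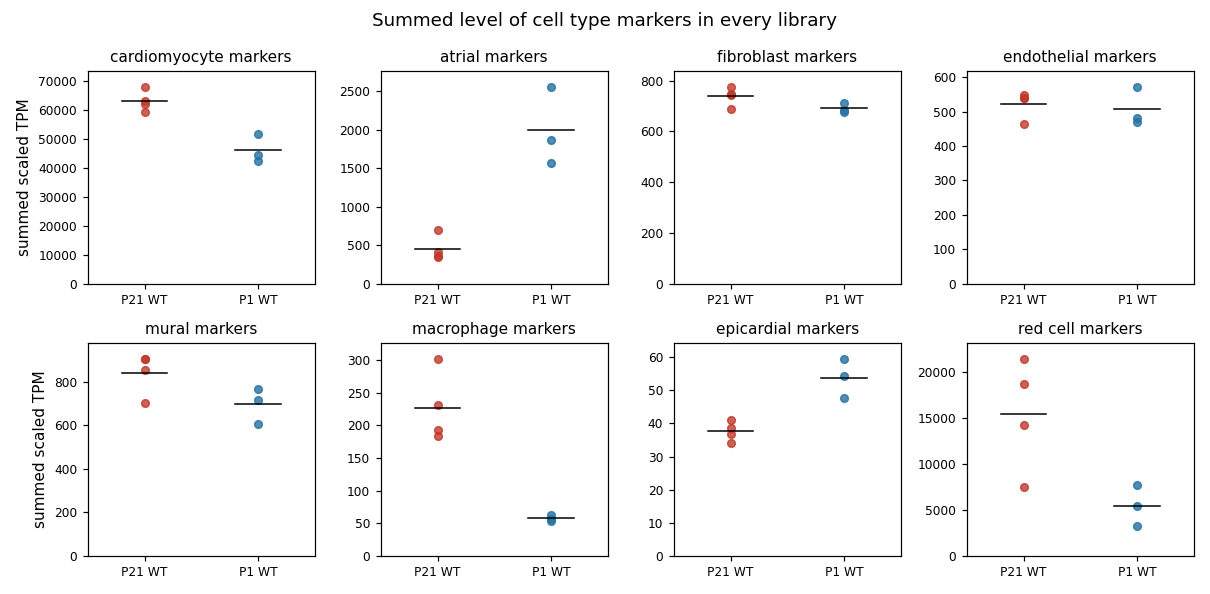
Summed scaled TPM of 8 lists of cell type markers in each P21 (red, left) and P1 (blue, right) library, with bars at the means. Macrophage markers are higher and atrial and epicardial markers lower in every P21 library, and fibroblast and endothelial sums overlap between the ages.

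Oxygen sensing, antioxidant and clock genes split. Of 20 hypoxia and HIF genes 9 rose and 8 fell, with a median of -0.08 (7 higher and 11 lower on the deposited TPM). Epas1 (HIF-2alpha) had 69.7, 70.05, 70.02 and 72.5 scaled TPM in the P21 libraries and 26.2, 28.5 and 25.9 in the P1 libraries (log2 change 1.30 ± 0.08 (SE), adjusted p = 2.66e-07), and Egln1, the oxygen-sensing hydroxylase that marks HIF for destruction, 126, 132, 137 and 133 scaled TPM in the P21 libraries and 39.5, 39.4 and 46.3 in the P1 libraries (log2 change 1.56 ± 0.08 (SE), adjusted p = 6.03e-08). Vegfa, the vessel growth factor, had 279.9, 289.7, 305 and 262 scaled TPM in the P21 libraries and 152, 136 and 151 in the P1 libraries (log2 change 0.96 ± 0.07 (SE), adjusted p = 1.17e-06), while Hif1a, chosen after its value was seen, fell by 0.84. Of 23 antioxidant genes 10 rose and 5 fell. The mitochondrial peroxiredoxin Prdx3 had 220.4, 219, 239 and 209.6 scaled TPM in the P21 libraries and 103, 110.3 and 125 in the P1 libraries (log2 change 0.91 ± 0.09 (SE), adjusted p = 7.83e-06) and the extracellular superoxide dismutase Sod3 5.92, 6.64, 6.195 and 6.37 scaled TPM in the P21 libraries and 1.21, 0.753 and 1.42 in the P1 libraries (log2 change 1.74 ± 0.17 (SE), adjusted p = 7.45e-06). Without library 3 of P1 the counts were 12 higher and 2 lower, and on the deposited TPM 5 higher and 14 lower. Of 15 clock genes 7 rose and 2 fell (4 higher and 4 lower on the deposited TPM). The repressor Nr1d1 (REV-ERBalpha) had 39.3, 41.7, 34.6 and 48.1 scaled TPM in the P21 libraries and 11.3, 10.1 and 11.2 in the P1 libraries (log2 change 1.78 ± 0.12 (SE), adjusted p = 3.68e-07) and Dbp, a clock output factor, 44.9, 51.7, 61.1 and 36.7 scaled TPM in the P21 libraries and 20.99, 15.4 and 20.4 in the P1 libraries (log2 change 1.33 ± 0.17 (SE), adjusted p = 6.79e-05), while Cry1 fell by 0.77. These genes cycle over the day, and the hour of collection is not in the labels, so differences of hour and of age cannot be told apart.

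Some genes stood out at P7. At an adjusted p under 0.05 in both P7 comparisons and with no overlap, 438 genes peaked at P7 (3.04%) and 354 dipped (2.45%). Of the peaks 286 had no call between P21 and P1, 119 were lower and 33 higher at P21. Of the dips 234 had no call, 83 were higher and 37 lower. At least a 2-fold change on both sides was seen for 16 peaks and 35 dips. Without scaling, 726 genes peaked and 113 dipped.

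Peak genes under the naming rule included Angptl4, Prnd, Scd4, Banf2os, Apln, Plekhh1 and Pamr1. Angptl4, a secreted inhibitor of lipoprotein lipase that responds to fatty acids, had 7.74, 5.04 and 23.9 scaled TPM at P1, 32.9, 46.3, 46.5, 48.5 and 37.2 at P7 and 9.87, 2.23, 4.995 and 4.72 at P21. Library 3 was the highest of P1. Scd4, a fatty acid desaturase of the heart, averaged 17.96 ± 4.84 at P1, 43.6 ± 13.01 at P7 and 4.99 ± 1.16 at P21 (SD, n = 3, 5 and 4). The signalling peptide gene Apln, which acts on vessels and the heart, averaged 7.98 ± 3.75 at P1, 26.9 ± 9.55 at P7 and 8.13 ± 0.449 at P21. Prnd, a prion-like protein of young endothelium, averaged 8.03 ± 4.02 at P1, 23.8 ± 3.5998 at P7 and 4.96 ± 2.13 at P21. Banf2os, an antisense gene whose reads cannot be told from those of its partner as strand use is not given, Plekhh1 and Pamr1 had P7 means of 11.7, 7.49 and 6.94. Between P21 and P1 only Scd4 of these 7 passed, with a log2 change of -1.42. Angptl4 and Prnd passed as lower without library 2 of P1 (-1.36 and -0.98), and Angptl4 also without library 2 of P21 (-1.47).

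The 8 dip genes were Klf15, Mt2, Timp4, Kyat3, Ifi27l2a, Gstm1, Olfr1033 and Pcx. Klf15, a transcription factor induced by glucocorticoids, had 17.05, 24.9 and 24.9 at P1, 4.13, 4.24, 6.18, 4.74 and 5.82 at P7 and 15.6, 18.7, 26.4 and 23.2 at P21. The metallothionein Mt2 had 199.8, 269.99 and 271 at P1, 13.6, 13.2, 18.9, 12.1 and 11.2 at P7 and 45.6, 38.3, 107 and 37.02 at P21, and the high P21 value is that of library 57. Gstm1, a glutathione transferase, had 57.5, 86.7 and 82.3 at P1, 20.95, 21.4, 25.97, 28.7 and 25.9 at P7 and 113, 126, 117 and 127 at P21. As the rule for a dip requires, every P7 value of these 3 genes lies below every value of the other ages. Timp4, a heart-enriched inhibitor of metalloproteinases, averaged 8.29 ± 2.12 at P1, 1.86 ± 0.402 at P7 and 9.44 ± 3.29 at P21 (SD, n = 3, 5 and 4). Ifi27l2a, an interferon-induced gene, averaged 29.4 ± 8.49 at P1, 9.096 ± 1.62 at P7 and 77.01 ± 24.9 at P21. Kyat3, Olfr1033 and Pcx, which encode a kynurenine aminotransferase, an olfactory receptor and pyruvate carboxylase, had P7 means of 2.81, 6.36 and 1.73. Of the 8, Mt2 was lower at P21 than at P1 and Ifi27l2a and Gstm1 were higher. The other 5 did not pass, so a comparison of P21 with P1 alone lists them as not called although P7 differs from both. Klf15 passed as lower at P21 without library 1 of P1 (-0.47).

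**Figure D5:**
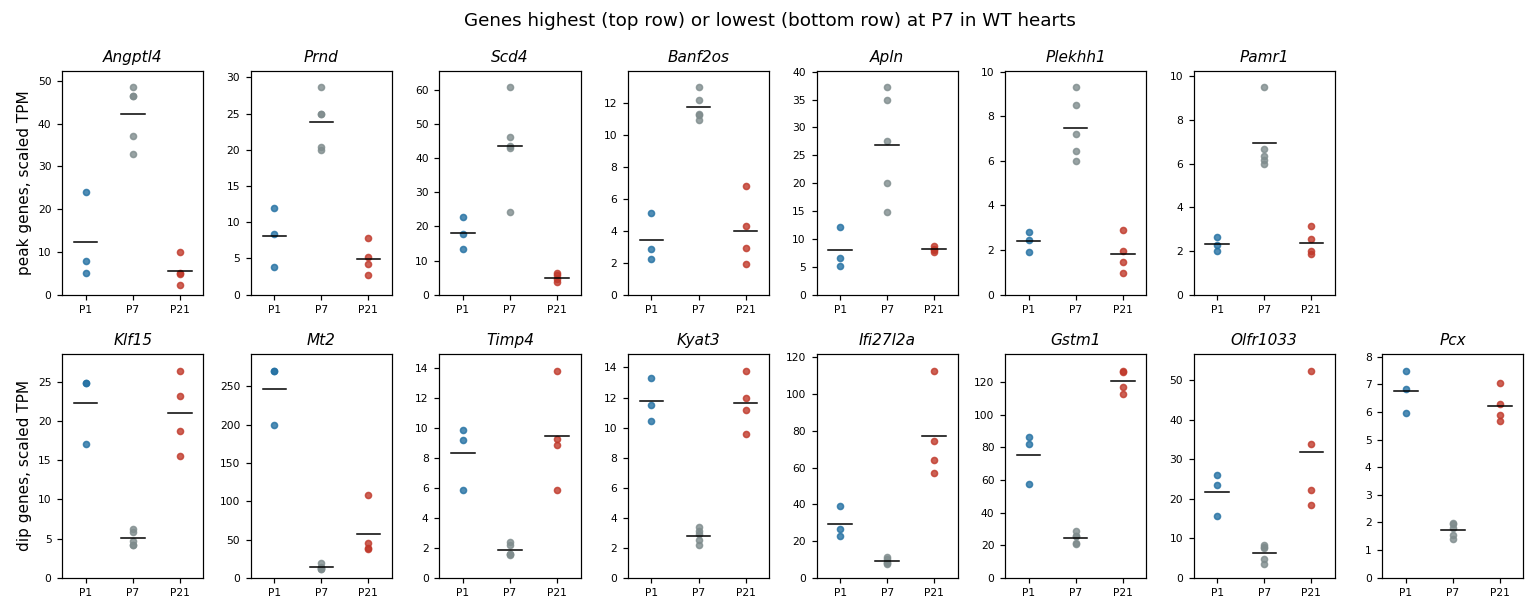
Scaled TPM of 7 peak genes (top) and 8 dip genes (bottom) in every WT library at P1 (blue), P7 (grey) and P21 (red), with bars at the means. By the rules for peaks and dips, every P7 point lies above all others in the top row and below all others in the bottom row. The P1 and P21 means of Klf15 are 22.3 and 20.96.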

How the data were processed

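The deposited table holds the authors' TPM per gene and library, and no counts were made. Per the submitters' processing notes, TopHat2 2.0.14 and Cufflinks 2.2.1 were used with mm10. The tool and annotation behind the TPM values, and whether strand was used, are not given in the sources used here. The labels' protocols name RNA iso Plus for extraction and the SMARTer mRNA-Seq kit for library preparation. There are 56066 genes, and 2 columns that belong to no sample of the series were not used.

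TPM were scaled by the median ratio over 11169 genes. A gene was tested if 3 or more of the 12 WT libraries held 1 TPM or more (14429 genes), as log2(scaled TPM + 1) in R 4.3.3 with limma 3.58.1 (lmFit and a trended eBayes). Tables were read with version 1.17.8 of data.table. Fold changes on that scale understate those of low genes. The model had group and title style as terms. The Benjamini-Hochberg adjustment ran over all genes tested, and an adjusted p under 0.05 passed. Peak and dip genes passed in both P7 comparisons with no overlap of libraries. Isoform shares were compared with an exact permutation test.

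Named were, in each direction, up to 12 genes with the largest change among those that passed, did not overlap and averaged 10 TPM or more at the higher age, all members of the isoform pairs, up to 5 members per list with the smallest p, and up to 8 peak and 8 dip genes (5 TPM or more on average at the higher age). Sex genes, mitochondrial and haemoglobin genes outside their lists, pseudogenes and placeholder names were left out. Not every gene so named is described, and the results of some genes are not reported here. The members, the gene lists and the tests were chosen with earlier results of these data known.

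The step was also run on simulated data with 200 changed genes of 13383, and 1 added abundant gene that shifted the P21 libraries. It called 166 genes, of which 11 were false and 0 had the wrong sign, and the median unchanged gene stood at 0. Between the P21 and P1 hearts 56.1% of genes were called. The scaling was not tested with so large a share of changed genes. GENCODE M21 (mm10) gave gene positions and the transcripts in which pseudogenes with at least 50% of their 31-base words in mitochondrial transcripts were found, a search added after seeing the data, and RefSeq the promoter windows. Alternatives were no scaling, quantile normalization, a table without mitochondrial and haemoglobin genes (it kept the pseudogene copies), a filter of 5 TPM or none, a pseudocount of 0.1, a 2-fold threshold, array quality weights, other models and library sets, a replicate block, and each library left out in turn. Counts of list members under these settings were added after seeing the data.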

Additional observations from a re-analysis of the deposited data

Results flagged for a closer look

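In groups of 4 or 5 libraries, 192 sets of values were tested for a library that stands apart by Dixon's test, and 12 were picked out. Chance alone picks about 1 in 20. Library 57 of P21 accounted for 7 of them. In it Nppa was at 536.2 scaled TPM, against 225 to 242 in the other P21 libraries, Mt2 at 107.5 (37.0 to 45.6 in the others), Myh7 at 6388 (5311 to 5480), Eno3 at 1804 (1458 to 1485), Perm1 at 130.8 (107 to 110.2) and Birc5 at 3.056 (1.22 to 1.48). Its share of Myh6 in the Myh6 and Myh7 sum was 63.68%, against 65.4% to 65.5% in the others. Library 60 of P21 stood apart in Epas1 (72.5, against 69.7 to 70.04), Rrm2 (2.334, against 1.70 to 1.8) and Thra (72.1, against 63.1 to 64.5). Bdh1 was at 2.742 in library 3 of P21, against 0.628 to 0.854 in the others, and Bnip3l at 46.55 in library 2 of P21, against 53.0 to 53.4. Each of these genes was called with library 57 included, and the counts over all genes without it were 3945 higher and 4190 lower.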

How the results depend on the processing

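Beside the main fit there were 25 other settings, and not every gene was tested in each. The 5 TPM filter, for example, held 158 of the 166 genes with a value in the text. Of the 156 called genes with a value in the text, 145 kept their call wherever tested, apart from no scaling and the 2-fold threshold. Those that lost it in at least 1 were Bdh1, Bnip3l, Cpt1a, Ldha, Ldhb, Myh6, Myh7, Myl7, Pln, Rb1 and Slc8a1. Without scaling, 1555 genes were higher and 8229 lower, 726 peaked and 113 dipped; the sign of the log2 change turned for Ckm (-0.336), Cpt1b (-0.442), Ldhb (-0.034), Myl2 (-0.415) and Rb1 (-0.167). In that setting the median gene stood at -0.49. Quantile normalization turned Ckm (-0.359), Myh6 (-0.006), Myl2 (-0.917), Pln (-0.177) and the median of the cardiomyocyte markers (-0.343); these are among the most abundant transcripts, whose values that method sets equal by rank. At a 2-fold threshold 1163 genes were higher, 1113 lower, 16 peaked and 35 dipped. With letter-coded libraries only, 252 genes peaked; the cause was not tested. The median of the hypoxia genes was 0.062 with P1 and P21 libraries alone and no title style term. Each library left out in turn gave 3413 to 3945 higher and 3651 to 4223 lower genes. TPM keep no depth, so what depth limits could not be assessed, and with 3 and 4 libraries the exact test of a share cannot fall below 0.0571.

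The numbers 2 and 3 recur among the P1 and P21 libraries. Deviations from the group means of libraries with the same number correlated at -0.011 and 0.009 across genes. Only libraries 2 and 3 of P21 entered, and their deviations from their mean are mirror images. These correlations therefore cannot tell whether the numbers pair the samples. With the number as a replicate block 3725 genes were higher and 4016 lower.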
